A study of Homo sapiens with 6 samples.

Results

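The 10 genes described here form the receptor end of the TRAIL death pathway. They are the ligand gene TNFSF10, its death receptors TNFRSF10A and TNFRSF10B, its decoy receptors TNFRSF10C and TNFRSF10D, the related death receptor FAS, the adaptor FADD, the initiator caspases CASP8 and CASP10, and CFLAR. They were chosen by symbol, and each matched 1 of the 62111 gene IDs that both deposited tables list. RNA had been sequenced from K562, a human leukaemia line grown from a patient in blast crisis of chronic myeloid leukaemia. There were 3 libraries of K562 cells with the K700E substitution in SF3B1 and 3 of K562 cells with wild-type SF3B1 (WT). The labels name no treatment and do not say how the substitution was introduced, whether the K700E cells are 1 clone, or whether replicates were separate cultures. The p-values therefore measure only the spread between these libraries.

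TRAIL, the product of TNFSF10, binds as a trimer to the death receptors that TNFRSF10A and TNFRSF10B encode. The clustered receptors recruit FADD, FADD recruits procaspase-8 or procaspase-10 through death effector domains, and the caspases activate each other by proximity. The product of CFLAR, called FLIP, resembles caspase-8 but lacks its catalytic site and competes for the same complex. The decoy receptors bind TRAIL without passing on a full death signal. SF3B1 is a subunit of the U2 snRNP, which recognises the branch point of introns, and K700E is a recurrent substitution in myelodysplastic syndromes and leukaemias. The comparison asks whether the RNA level of these genes differed between K562 cells with and without it. Values per gene do not separate isoforms, so the long and short forms of FLIP and the splice forms of CASP8 were each counted together.

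The unit was TPM, reads divided by gene length and scaled to the same sum in each library, with the K700E libraries in one table and the WT libraries in another. Read ends recovered from these values came to between 111628565 and 126480630 per K700E library and between 104642332 and 136588117 per WT library. All 10 erythroid markers of K562 that were looked up, HBG1 and GATA1 among them, averaged at least 1 TPM. WT replicate 3 lay between the other WT libraries in 75.9% of tested genes, against 10.2 to 46.3% for the other libraries, so the values of the 7 tested genes are also given without it. Correlations of log2(TPM + 1) ran from 0.9518 to 0.9893 within a genotype and from 0.9521 to 0.9801 between genotypes. SF3B1 was at 160, 136 and 118 TPM in K700E, against 144, 98.9 and 115 TPM in WT (limma adjusted p 0.602), and gene totals do not show the substitution itself. Each table holds 1 genotype, so a difference in alignment or counting between the tables cannot be told apart from genotype.

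None of the 10 genes passed the test. The test needed a mean of 1 TPM over the 6 libraries, which 7 of the 10 reached. All 7 had a positive log2 difference (K700E minus WT), as had 69.3% of all 15493 genes tested. In 3 of these, TNFRSF10B, FADD and CFLAR, every K700E library lay above every WT library. Over all tested genes 24.0% had separate groups, 19.0% with K700E higher and 4.99% with K700E lower. TNFRSF10B and CFLAR had an unadjusted p under 0.05, which 16.5% of all genes had. The adjusted p passed 0.05 in 1.38% of all genes (178 higher and 36 lower). That split was 268 and 221 after correction for GC content, and no gene was called without WT replicate 3 (1462 at an unadjusted p under 0.05). The median log2 difference of the 7 genes was 0.35 and that of all tested genes was 0.13. Differences are in log2(TPM + 1), a scale that draws the change of genes with few reads toward 0.

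**Figure D1:**
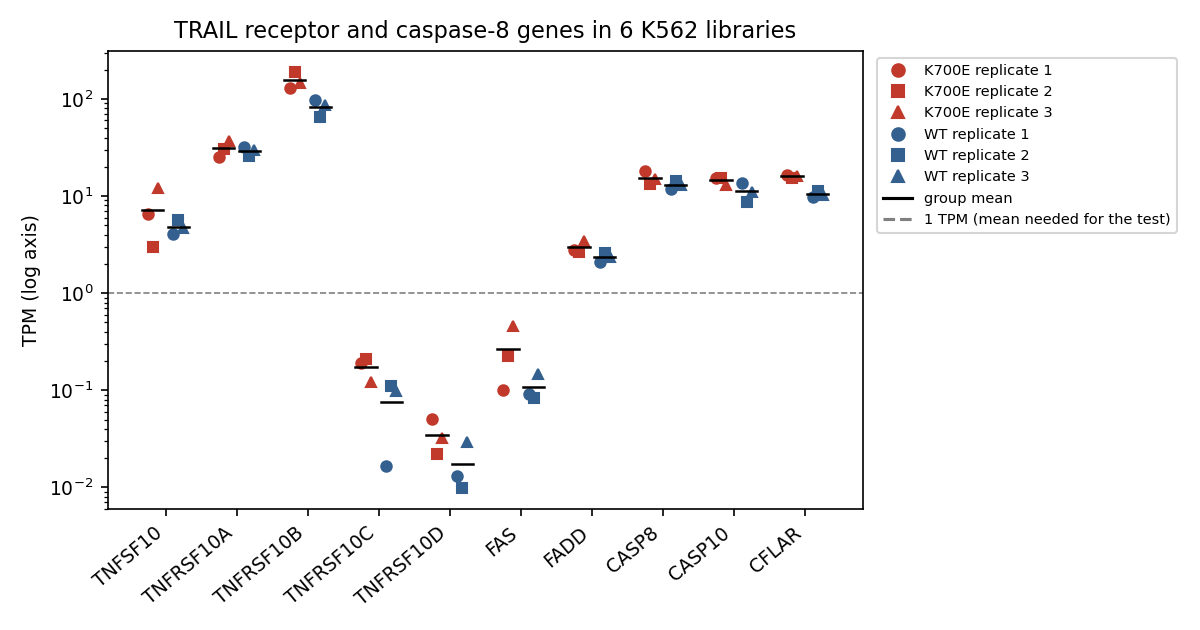
TPM (log axis) of the 10 genes in each library, K700E in red on the left and WT in blue on the right of each gene, with group means as bars. TNFRSF10B stood highest in all 6 libraries, and TNFRSF10C, TNFRSF10D and FAS lay under 1 TPM in all 6.

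The order of levels was similar in both genotypes. TNFRSF10B was the highest, at 156 TPM on average in K700E and 82.8 TPM in WT, and TNFRSF10A was second, with library ranges that did not overlap those of its neighbours in the order. CFLAR, CASP8 and CASP10 followed together, between 14.6 and 16.0 TPM on average in K700E and between 10.5 and 13.01 TPM in WT. Neighbours among these 3 genes had overlapping ranges. The 2 genes below them were TNFSF10 and FADD, whose ranges overlapped in K700E and did not overlap in WT. FAS and the decoy receptors came last, and FAS and TNFRSF10C overlapped in both genotypes.

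The ligand gene TNFSF10 (ENSG00000121858, GRCh37 chromosome 3, 172223298 to 172241265, minus strand) was the most variable of the 7 tested genes among the K700E libraries. It stood at 6.58, 3.02 and 12.02 TPM in K700E replicates 1, 2 and 3, against 4.03, 5.73 and 4.64 TPM in WT. K700E replicate 2 was the lowest of all 6 libraries and K700E replicate 3 the highest, so the groups overlapped. The means were 7.21 ± 4.53 TPM in K700E and 4.80 ± 0.863 TPM in WT (SD, n = 3 each), and the log2 difference of 0.35 (SE 0.39, 95% interval -0.57 to 1.27) carried an adjusted p (limma) of 0.707. The difference was -0.060 without K700E replicate 3 (adjusted p 0.948) and 0.79 without K700E replicate 2 (adjusted p 0.330).

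T cells, natural killer cells and monocytes also make TRAIL, so markers of these cells are given beside TNFSF10. The 7 T and natural killer cell markers summed to 7.45, 4.95 and 12.7 TPM in K700E, against 3.76, 8.105 and 7.05 TPM in WT, and 2 of the 7 averaged at least 1 TPM (CD3G and NKG7). CD3G, a chain of the T cell receptor complex, stood at 3.41, 1.30 and 5.08 TPM in K700E, against 0.531, 0.463 and 0.443 TPM in WT, and NKG7, a granule protein, at 2.33, 2.49 and 5.64 TPM in K700E, against 2.23, 6.30 and 5.55 TPM in WT. CD3G, CD3E, CD2 and CD8A lay wholly higher in K700E, and NKG7, GNLY and GZMA overlapped. Over all tested genes 19.0% lay wholly higher in K700E. Only CD3G and NKG7 of these markers were tested, so that share is no measure for the others. CD3G, with a mean of 0.479 TPM in WT, reached the level tested only through the K700E libraries. CD3E rested on 24 to 85 read ends a library and CD2 on 4 to 16. CD8A was at 0 in the WT libraries and at 0.0129 to 0.0249 TPM in K700E, from 2 to 4 read ends. GZMA was at 0 in all but WT replicate 2. The 7 neutrophil and monocyte markers, LYZ being the highest, summed to 69.1, 99.8 and 182 TPM in K700E, against 117, 135 and 118.5 TPM in WT. MPO averaged under 0.1 TPM. Every library is labelled K562, and whether the marker RNA came from K562 cells themselves was not tested. Any part of other cells in the TNFSF10 values was not tested either. In bulk RNA fewer cells of a type and less RNA per cell cannot be told apart.

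TNFSF10 is an interferon-inducible gene, so IRF1, a transcription factor that interferon induces, is given with it. IRF1 stood at 5.94, 6.10 and 7.86 TPM in K700E and 4.35, 7.45 and 6.31 TPM in WT. Its groups overlapped, and its highest K700E library was replicate 3, as for TNFSF10.

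Promoter sequences are shown for 3 genes that differ in level and spread: TNFSF10 with its wide spread, FAS near 0, and CFLAR with the narrowest relative spread of the tested genes. Each is the 250 bases before the first start of the gene in a RefSeq table (GRCh38.p14, which is not the build of the deposited tables), read 5′ to 3′ on the gene's strand. RefSeq windows were matched for 5 of the 10 genes. Capitals mark matches, on either strand, to the GC box GGGCGG, the TATA box TATAAA, the core of the interferon-stimulated response element (GAAA, any 2 bases, GAAA), or the NF-kB motif.
TNFSF10 (chr3:172523431-172523680, minus strand): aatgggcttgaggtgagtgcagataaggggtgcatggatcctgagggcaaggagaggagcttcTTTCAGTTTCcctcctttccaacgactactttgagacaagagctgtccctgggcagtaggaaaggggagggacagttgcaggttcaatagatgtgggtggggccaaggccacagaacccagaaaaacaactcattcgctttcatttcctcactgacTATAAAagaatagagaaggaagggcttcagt
FAS (chr10:88990548-88990797, plus strand): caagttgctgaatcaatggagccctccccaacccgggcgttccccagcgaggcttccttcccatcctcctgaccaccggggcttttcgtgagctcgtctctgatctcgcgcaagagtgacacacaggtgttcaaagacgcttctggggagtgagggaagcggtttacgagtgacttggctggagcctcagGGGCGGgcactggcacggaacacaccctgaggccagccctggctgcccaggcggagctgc
CFLAR (chr2:201118466-201118715, plus strand): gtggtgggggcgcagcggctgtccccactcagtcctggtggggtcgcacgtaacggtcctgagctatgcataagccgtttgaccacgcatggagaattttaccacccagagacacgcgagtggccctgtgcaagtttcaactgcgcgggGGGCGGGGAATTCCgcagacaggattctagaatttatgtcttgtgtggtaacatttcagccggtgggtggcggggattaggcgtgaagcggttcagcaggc
The TNFSF10 window held a TATA box and the interferon-stimulated core, which 10.7% and 3.02% of 35116 RefSeq windows of this length held. The CFLAR window held a GC box and an overlapping NF-kB match, held by 42.6% and 5.21% of all windows. The FAS window held a GC box only. GC content was 49.6% for TNFSF10, 62.8% for FAS and 58.8% for CFLAR, with 2, 14 and 17 CpG sites, and the median of all windows was 58%. The matched windows of FADD and CASP8, not shown, held 2 and 1 GC boxes, at a GC content of 68.8% and 45.6%. These matches describe the letters of the windows and were not measured as binding. Whether they relate to level or spread was not tested.

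TNFRSF10B, which encodes the TRAIL death receptor DR5, had the largest difference of the 7 tested genes. TNFRSF10B (ENSG00000120889) lies on GRCh37 chromosome 8, 22877646 to 22926544, minus strand. It stood at 131, 191 and 147 TPM in K700E, against 97.5, 65.1 and 85.8 TPM in WT. Every K700E library was above every WT library. The means were 156 ± 31.3 TPM in K700E and 82.8 ± 16.4 TPM in WT (SD, n = 3 each). The log2 difference of 0.91 (SE 0.20, 95% interval 0.44 to 1.38) carried an adjusted p (limma) of 0.0889 and did not pass. It was larger than 96.8% of the differences of all tested genes.

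Without WT replicate 3 the difference of TNFRSF10B was 0.95, with a limma adjusted p of 0.308. Over all 15 alternatives the difference ran from 0.75 to 1.04 and the adjusted p from 0.0659 (without WT replicate 1) to 0.308. The counting depth behind these values was between 23307 and 38998 read ends in K700E and between 15036 and 19872 in WT, so the spread between libraries sets the precision.

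TNFRSF10A, which encodes the other death receptor for TRAIL, DR4, lies in the same cluster at 23047965 to 23082615, minus strand (ENSG00000104689). It stood at 25.2, 30.7 and 37.2 TPM in K700E, against 32.2, 25.8 and 29.7 TPM in WT. The groups overlapped. The means were 31.0 ± 5.96 TPM in K700E and 29.2 ± 3.23 TPM in WT (SD, n = 3 each). The log2 difference of 0.07 (SE 0.18, 95% interval -0.34 to 0.49) carried an adjusted p (limma) of 0.874, and its sign turned under TMM scaling (-0.050), median-ratio scaling (-0.066) and GC correction (-0.085). Of its exon bases 8.33% lie in the antisense gene TNFRSF10A-AS1, which stood at 1.48 to 2.40 TPM in K700E and 1.22 to 4.19 TPM in WT, and reads of the 2 strands cannot be told apart where the counting ignored strand.

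The balance between the TRAIL death receptors is free of library scaling, since it is a ratio within a library. TNFRSF10B exceeded TNFRSF10A by 5.17, 6.23 and 3.97 times in K700E, against 3.03, 2.53 and 2.89 times in WT. Every K700E library had a higher ratio than every WT library. The mean ratio was 5.12 ± 1.13 in K700E and 2.82 ± 0.260 in WT (SD, n = 3 each), and the K700E mean over the WT mean stayed between 1.62 and 2.02 when 1 library was left out (1.84 without WT replicate 3). Since the 2 genes were chosen with earlier results known, the ratio is a description with no test.

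The decoy receptors were close to 0. TNFRSF10C (ENSG00000173535, 22960434 to 22974958, plus strand) and TNFRSF10D (ENSG00000173530, 22993101 to 23021540, minus strand) lie between the genes of the death receptors. TNFRSF10C, whose product is held by a lipid anchor and has no death domain, stood at 0.193, 0.211 and 0.122 TPM in K700E, against 0.0165, 0.112 and 0.0990 TPM in WT. These values rest on 12, 15 and 9 read ends in K700E and 1, 9 and 8 in WT, and 36.6% of its exon bases lie in other genes of the table. The groups did not overlap in TPM, the nearest pair being 0.122 TPM in K700E and 0.112 TPM in WT, from 9 read ends each. TNFRSF10D, which encodes a decoy with a truncated death domain, stood at 0.0507, 0.0222 and 0.0322 TPM in K700E, against 0.0130, 0.00979 and 0.0293 TPM in WT, from 2 to 8 read ends. The 2 decoys together came to 0.156, 0.105 and 0.0837% of the 2 death receptors in K700E and 0.0228, 0.134 and 0.111% in WT, and the groups overlapped. Neither reached the level tested, and the 4 receptor genes are paralogs whose similar stretches may share reads.

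FAS, the receptor for FAS ligand, was also near 0. It stood at 0.101, 0.226 and 0.462 TPM in K700E (18, 46 and 97 read ends), against 0.0925, 0.0826 and 0.147 TPM in WT (16, 19 and 34 read ends). K700E replicate 1 lay within the WT range and the other K700E libraries above it. With no filter on low values the log2 difference was 0.18 (limma adjusted p 0.532), and with limma-voom on read ends it was 1.04 (adjusted p 0.444). Other genes of the table cover 40.2% of FAS exon bases (ENSG00000026103, GRCh37 chromosome 10, 90750288 to 90776816, plus strand). FASLG, the gene of its ligand, reached 0.0992 TPM at most.

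FADD, the adaptor that links receptors to caspases, was the lowest of the 7 tested genes. It stood at 2.805, 2.65 and 3.46 TPM in K700E, against 2.08, 2.59 and 2.37 TPM in WT. Every K700E library lay above every WT library, the closest pair being 2.65 TPM in K700E and 2.59 TPM in WT. The means were 2.97 ± 0.432 TPM in K700E and 2.35 ± 0.260 TPM in WT (SD, n = 3 each), and the log2 difference of 0.25 (SE 0.16, 95% interval -0.12 to 0.61) carried an adjusted p (limma) of 0.488. Of its 1708 exon bases (ENSG00000168040, GRCh37 chromosome 11, 70049402 to 70053496, plus strand) 976 lie in a gene on the other strand, ENSG00000254721, which is listed at 0 in all 6 libraries. Whether reads in those bases were counted for FADD is not given in the sources used here, so its level against the other genes is uncertain.

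CASP8 (ENSG00000064012), the initiator caspase of the receptor complex, stood at 18.2, 13.3 and 15.0 TPM in K700E, against 11.8, 14.1 and 13.1 TPM in WT. K700E replicate 2 lay within the WT range. The means were 15.5 ± 2.50 TPM in K700E and 13.01 ± 1.18 TPM in WT (SD, n = 3 each), and the log2 difference of 0.23 (SE 0.16, 95% interval -0.16 to 0.61) carried an adjusted p (limma) of 0.540. CASP10 (ENSG00000003400), the other initiator caspase of the complex, stood at 15.3, 15.4 and 13.1 TPM in K700E, against 13.8, 8.75 and 11.0 TPM in WT. Here K700E replicate 3 lay within the WT range. The log2 difference of CASP10 was 0.37 (SE 0.19, 95% interval -0.06 to 0.81), with a limma adjusted p of 0.377.

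CFLAR, the gene of the inhibitor FLIP, had the narrowest spread relative to its mean of the 7 tested genes, with a coefficient of variation of 2.98% in K700E and 7.70% in WT. CFLAR (ENSG00000003402) stood at 16.3, 15.5 and 16.3 TPM in K700E, against 9.78, 11.4 and 10.3 TPM in WT. The groups did not overlap. The means were 16.0 ± 0.477 TPM in K700E and 10.5 ± 0.809 TPM in WT (SD, n = 3 each). The log2 difference of 0.57 (SE 0.14, 95% interval 0.25 to 0.88) carried an adjusted p (limma) of 0.106 and did not pass. Without WT replicate 3 it was 0.56, with an adjusted p of 0.443, and over all 15 alternatives it ran from 0.42 to 0.62, with adjusted p from 0.0702 (limma-voom on read ends) to 0.443. The deposited length of CFLAR is the union of all its annotated exons, 20587 bases, against 3936 for CASP8. Levels per length of the 2 genes therefore rest on which exons are annotated.

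**Figure D2:**
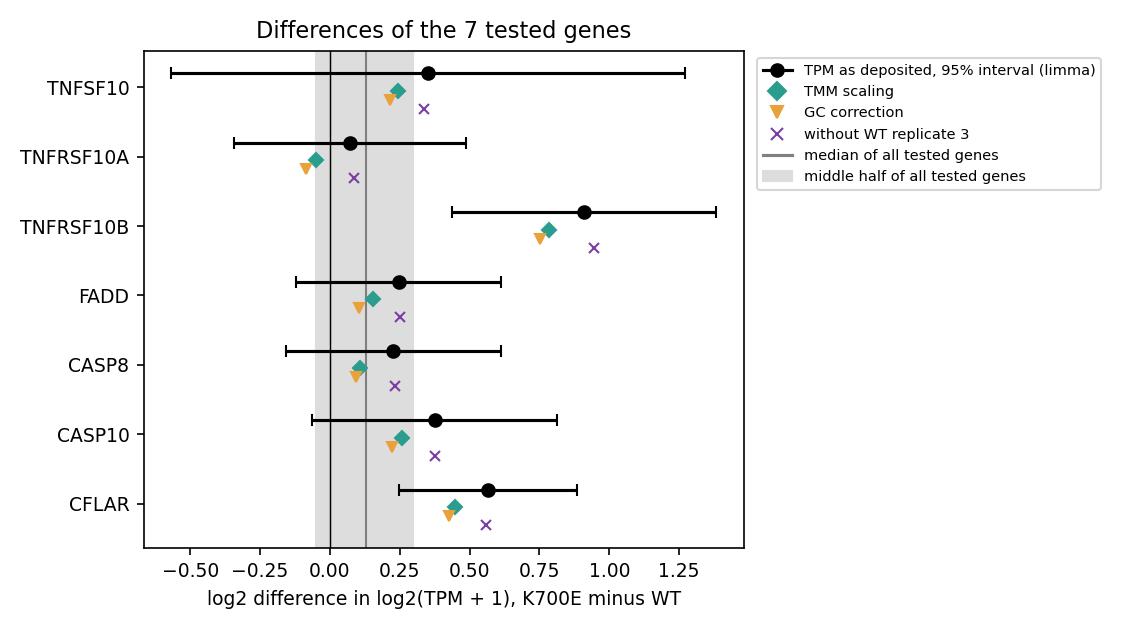
Log2 difference (K700E minus WT, in log2(TPM + 1)) of the 7 tested genes with limma's unadjusted 95% interval, and the same value under TMM scaling, GC correction and without WT replicate 3. The grey line is the median of all tested genes (0.13), and TNFRSF10B (0.91) and CFLAR (0.57) lie to the right of the other 5 genes under each setting drawn.

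Without WT replicate 3 the difference was 0.34 for TNFSF10, 0.09 for TNFRSF10A, 0.25 for FADD, 0.23 for CASP8 and 0.38 for CASP10, with limma adjusted p between 0.712 and 0.934. Other single libraries moved some of these differences by more. CASP8 was at 0.11 without K700E replicate 1 and at 0.33 without K700E replicate 2. CASP10 was at 0.22 without WT replicate 2 and at 0.52 without WT replicate 1. FADD was at 0.16 without K700E replicate 3 and at 0.30 without K700E replicate 2. TNFRSF10A was at 0.21 without K700E replicate 1, at 0.14 without WT replicate 1, at -0.061 without K700E replicate 3 and at -0.011 without WT replicate 2. None of these passed (limma adjusted p between 0.136, for CASP10 without WT replicate 1, and 0.986).

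CFLAR, CASP10 and CASP8 lie side by side on the plus strand of GRCh37 chromosome 2, in that order, from 201980877 to 202152434. CFLAR lies 3.68 Mb from SF3B1 on the same chromosome. The ratio of CFLAR to CASP8, inhibitor to initiator, was 0.896, 1.16 and 1.08 in K700E, against 0.830, 0.804 and 0.789 in WT. Every K700E library was above every WT library, with means of 1.05 ± 0.138 in K700E and 0.808 ± 0.0204 in WT (SD, n = 3 each). The K700E mean over the WT mean stayed between 1.23 and 1.39 when 1 library was left out. The ratio of CASP10 to CASP8 overlapped between the groups, at 0.843, 1.16 and 0.870 in K700E and 1.17, 0.618 and 0.842 in WT. The ratio of CFLAR to FADD also overlapped, at 5.81, 5.83 and 4.69 in K700E and 4.71, 4.39 and 4.37 in WT.

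**Figure D3:**
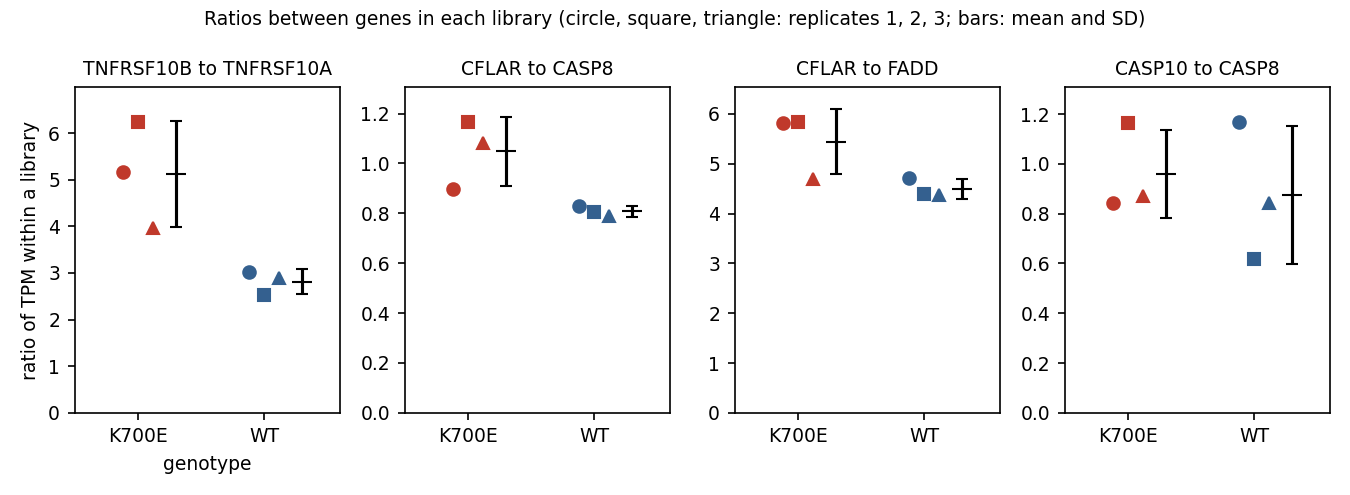
Ratio of TPM between genes in each library, K700E on the left and WT on the right of each panel, with circles, squares and triangles for replicates 1, 2 and 3 and bars for mean and SD. The groups were separate for TNFRSF10B to TNFRSF10A and for CFLAR to CASP8, and overlapped for CFLAR to FADD and CASP10 to CASP8.

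Among the 7 tested genes the 21 pairwise correlations of log2(TPM + 1) over the 6 libraries ran from -0.41 (TNFRSF10A with CASP8) to 0.86 (TNFRSF10B with CASP10), with a median of 0.425. All points of such a correlation share their libraries and the scaling within them, so they are a description. The cluster neighbours differed in this: CFLAR with CASP8 gave 0.73, CFLAR with CASP10 0.55, CASP8 with CASP10 0.21 and TNFRSF10A with TNFRSF10B 0.425. The genes most like TNFRSF10B over the 6 libraries, of 12508 named genes compared, were STAT3 (r 0.997), CCDC125 (0.994) and INPP1 (0.993). STAT3, a transcription factor of cytokine receptors, stood at 131, 162 and 142 TPM in K700E and 114, 85.4 and 103 TPM in WT. For TNFRSF10A they were RAB27B (0.992), NUDT19 (0.978) and MBOAT1 (0.972), and for CASP8 CEACAM1 (0.999), SPTBN1 (0.999) and MRPL17 (0.998). Of the genes compared, 2.99% reached 0.9 with TNFRSF10B, 2.36% with CASP8 and 0.328% with TNFRSF10A. These correlations rest on 6 libraries and span both genotypes, so a difference between the genotypes enters them.

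The tested genes around both clusters were described by position. Within 1 Mb of the TNFRSF10 cluster 30 other genes were tested, with a median log2 difference of 0.14. Of these, 2 rose and none fell by the same limma test, where 1.15% of all genes rose and 0.232% fell. They were LOXL2, a lysyl oxidase of collagen, at 12.05, 10.3 and 10.6 TPM in K700E and 2.32, 3.21 and 2.76 TPM in WT (adjusted p 0.0105), and STC1, a secreted glycoprotein, at 2.76, 2.59 and 2.65 TPM in K700E and 0.217, 0.109 and 0.2005 TPM in WT (adjusted p 0.00822). STC1 lay under 1 TPM in every WT library and reached the mean needed for the test only through the K700E libraries. A gene this low in WT could enter the test only if it was higher in K700E. Of the 30 genes 5 (16.7%), STC1 among them, lay wholly higher in K700E, against 19.0% of all genes. Around CFLAR, CASP10 and CASP8 20 other genes were tested, with a median of 0.13, and 1 of them rose, SPATS2L, at 20.4, 18.1 and 17.4 TPM in K700E and 8.82, 7.38 and 7.86 TPM in WT (adjusted p 0.0191). Of these 20 genes 4 (20.0%) lay wholly higher. These 3 genes were named after their values were seen, and no gene of the whole table was called without WT replicate 3.

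The wider pathway was described by 62 other genes in 9 lists, of which 47 were tested. Of these 1 rose, none fell and 46 did not pass, where 1.15% of all genes rose and 0.232% fell. The median log2 difference of the 47 was 0.13, as for all genes. In 10 of the 47 (21.3%) the K700E libraries lay wholly above WT, close to the 19.0% of all genes.

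The gene that rose was EDA2R, the receptor of ectodysplasin A2, a relative of the death receptors that has no death domain. It stood at 1.51, 1.99 and 2.53 TPM in K700E, against 0.369, 0.306 and 0.287 TPM in WT. With a mean of 0.321 TPM in WT, it reached the mean of 1 TPM needed for the test only through the K700E libraries. A gene this low in WT could enter the test only if it was higher in K700E. The groups did not overlap, and the log2 difference of 1.18 (SE 0.17) carried an adjusted p (limma) of 0.0247. The counts behind it were 244 to 483 read ends in K700E and 58 to 64 in WT. It lost the call without WT replicate 3 (adjusted p 0.145), without WT replicate 2 (0.0629) and without K700E replicate 2 (0.0706) or 3 (0.0561). With limma-voom on read ends, which adds no pseudocount of 1 TPM, its difference was 2.58 and its adjusted p 0.0161.

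The other receptors on its list did not pass. TNFRSF1A, the receptor of TNF with a death domain, stood at 33.5, 23.8 and 28.9 TPM in K700E, against 14.4, 18.2 and 16.6 TPM in WT (limma adjusted p 0.0914). TNFRSF21 stood at 9.57 ± 2.68 TPM in K700E and 6.82 ± 1.02 TPM in WT (SD, n = 3 each; limma adjusted p 0.426). The list median of 4 tested genes, EDA2R among them, was 0.59. None of the 6 ligand genes and soluble decoys reached the level tested, and their summed level was 0.377 to 0.650 TPM in K700E and 0.452 to 0.671 TPM in WT.

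Among 8 adaptors and kinases of receptor complexes none passed, with a list median of 0.02. RIPK1, the kinase that sits between survival and death signalling of the TNF receptor, was at 35.6, 38.2 and 41.4 TPM in K700E, against 25.8, 25.5 and 24.1 TPM in WT. Its groups did not overlap, and the log2 difference of 0.59 (SE 0.13) carried an adjusted p (limma) of 0.0842. CRADD and DAXX overlapped between the groups (limma adjusted p 0.678 and 0.696).

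Of 6 partners of caspase-8 or of death effector domains none passed, and the list median was 0.22. PEA15, which holds a death effector domain and binds FADD and caspase-8, stood at 118 ± 18.0 TPM in K700E and 82.1 ± 4.32 TPM in WT (SD, n = 3 each; limma adjusted p 0.155). DEDD stood at 32.6 ± 2.27 TPM in K700E and 25.3 ± 1.47 TPM in WT (limma adjusted p 0.242), and RBX1 at 97.8 ± 13.5 TPM in K700E and 84.4 ± 9.81 TPM in WT (0.544). The groups did not overlap for PEA15 and DEDD.

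Of 7 ubiquitin ligases and editors tested none passed, with a list median of 0.03. TNFAIP3, the ubiquitin editor A20 that NF-kB induces, was at 25.9, 15.6 and 19.4 TPM in K700E, against 24.4, 30.3 and 26.7 TPM in WT, with a log2 difference of -0.42 (SE 0.20, limma adjusted p 0.353). BIRC2, an inhibitor of apoptosis protein, stood at 39.3 ± 3.71 TPM in K700E and 31.2 ± 8.04 TPM in WT, and SHARPIN, of the linear ubiquitin chain complex, at 53.1 ± 12.6 TPM in K700E and 39.8 ± 21.8 TPM in WT (SD, n = 3 each; limma adjusted p 0.436 and 0.565).

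Downstream, none of 10 tested genes of the mitochondrial arm and later caspases passed, and the list median was 0.16. BID, which carries the signal of caspase-8 to mitochondria, stood at 36.1, 32.8 and 35.5 TPM in K700E and 30.8, 33.0 and 32.8 TPM in WT, so its groups overlapped. CASP9, the initiator caspase of the mitochondrial arm, and BAK1 also overlapped (limma adjusted p 0.589 and 0.599).

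MLKL, the effector of necroptosis, was the only 1 of 3 necroptosis genes tested, at 7.48, 4.095 and 5.06 TPM in K700E against 2.81, 3.60 and 2.84 TPM in WT (limma adjusted p 0.204), while RIPK3, the kinase that activates it, reached 0.0738 TPM at most. MARCHF8, a ubiquitin ligase of TRAIL receptors, was the only 1 of 3 genes of receptor glycosylation and turnover tested, with a log2 difference of -0.07. None of 10 transcription regulators passed, with a list median of 0.14. NFKB1 stood at 13.1 ± 1.79 TPM in K700E and 9.70 ± 0.179 TPM in WT, and MYC at 127 ± 10.6 TPM in K700E and 97.8 ± 14.1 TPM in WT (SD, n = 3 each; limma adjusted p 0.255 and 0.270). The groups did not overlap for NFKB1 and MYC, and 3 of the 10 regulators lay wholly higher in K700E, against 19.0% of all tested genes. DDIT3, a stress factor known to act on the promoter of TNFRSF10B, stood at 188 ± 25.2 TPM in K700E and 199.5 ± 25.3 TPM in WT, and its groups overlapped. Whether any regulator bears on the level of TNFRSF10B was not tested.

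**Figure D4:**
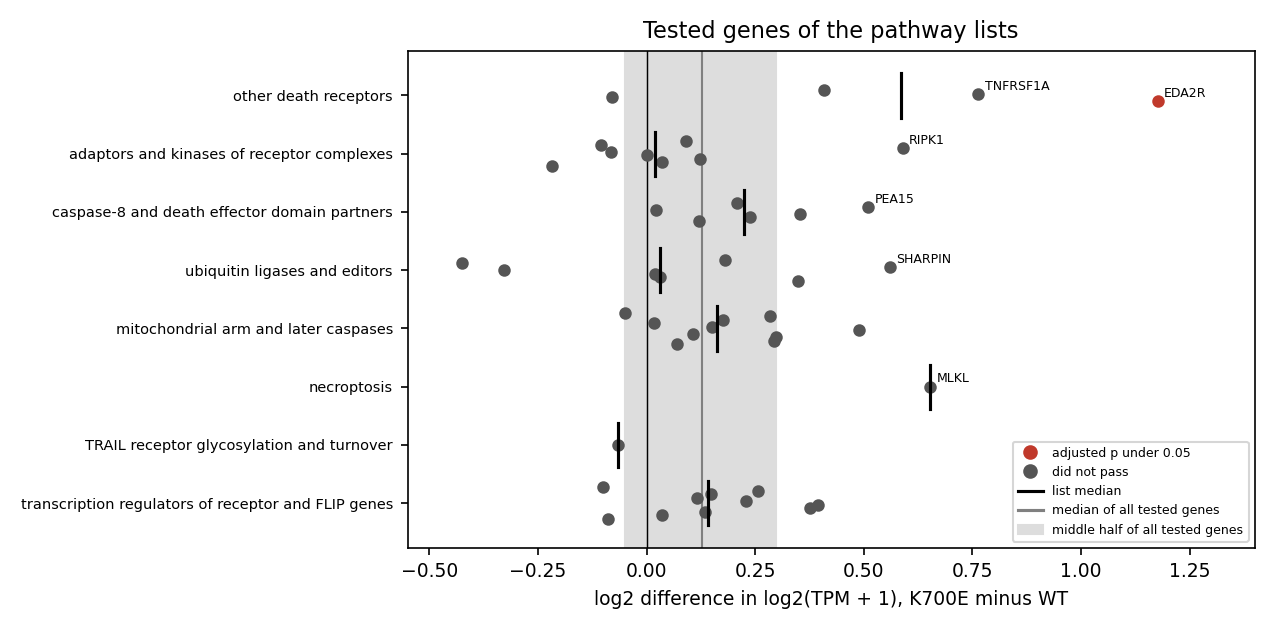
Log2 difference (K700E minus WT, in log2(TPM + 1)) of each tested gene of the pathway lists, with list medians as black bars and the interquartile range of all tested genes in grey. EDA2R (1.18) is the only point that passed, and most points lie within or near the grey band.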

How the data were processed

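The authors deposited TPM values per gene in 1 table per genotype, and the labels' protocols describe bead extraction and mRNA libraries. Tools named in the submitters' processing notes are cutadapt 2.10, TopHat2 2.1, featureCounts 2.0.1 and DESeq2, with the build GRCh37 (hg19). The WT columns, per the file headers, are named as STAR names sorted files. Neither the aligner nor the strand setting of each table is given in the sources used here. Symbols were matched to 94.4% of gene IDs. When TPM was multiplied by gene length and divided by a step per library, 100% of values above 0 came out as whole read ends, within 0.01.

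The test was limma 3.58.1 (R 4.3.3) on log2(TPM + 1) of the 15493 genes that averaged at least 1 TPM: empirical Bayes with a trend, genotype as the only term, two-sided, Benjamini-Hochberg over all of them, threshold 0.05. The procedure was tested on simulated data in which each gene varied on its own, and the outcome is not reported here. Deviations shared by many genes of a library were not simulated, so that test does not cover them. An exact permutation p for 1 gene cannot go below 0.1 with 3 libraries against 3, so none is given. Alternatives were a pseudocount of 0.1, no filter or a filter at 5 TPM, TMM (unweighted) and median-ratio scaling, no trend, each library left out, a replicate block, limma-voom on read ends (mean of at least 10), and a loess fit on GC content, known for 97.7% of tested genes from GENCODE 29. Members, lists and tests were chosen with earlier results of these data known. Named were all 10 members, SF3B1, up to 3 tested genes of each list by adjusted p, and the 3 genes most correlated with TNFRSF10A, TNFRSF10B and CASP8. Some genes of the lists that this rule names are not reported here. Further names (IRF1, BID, DDIT3, RIPK3, cluster neighbours, cell markers) were added after values were seen. Tables were joined with pandas 2.3.3 and numpy 2.4.6 under Python 3.11.15, and plots were made with matplotlib 3.10.9.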

Additional observations from a re-analysis of the deposited data

How the results depend on the processing

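No alternative brought any of the 10 genes past the threshold: over 108 refitted values none was called, 102 kept their direction and 6 turned. The turned values were TNFRSF10A at -0.050 with TMM scaling, -0.066 with median-ratio scaling, -0.085 with GC correction, and a range of -0.061 to 0.21 when 1 library was left out, and TNFSF10, which ranged from -0.060 to 0.79 when 1 library was left out. The ratio of CASP10 to CASP8, K700E mean over WT mean, was 1.09 and ran from 0.955 to 1.31 when 1 library was left out. The ratio of decoy to death receptors was 1.29 and ran from 0.939 to 1.72. The count of genes called over the whole table was 214. It was 92 with a filter at 5 TPM, 381 with limma-voom on read ends, 489 with GC correction, 0 with no filter (4891 at an unadjusted p under 0.05), and between 0 and 182 when 1 library was left out, the 0 being without WT replicate 3. Higher genes made up 83.2% of the calls, against 75.5% with TMM scaling, 74.4% with median-ratio scaling and 54.8% with GC correction. The single call in the pathway lists, EDA2R, became 0 with no filter, 0 with a filter at 5 TPM, where it was not tested, and 0 or 1 when 1 library was left out. The cause of these changes was not tested.

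Whether the replicate numbers pair the libraries is not settled. Deviations of libraries with the same number correlated at 0.28, -0.19 and 0.30, and those with different numbers at -0.48 to 0.43. Of the 3 K700E libraries 1 correlated best with its own number. Deviations within a genotype sum to 0, so these correlations depend on each other and cannot decide it. With the replicate number as a block 67 genes were called over the whole table, 0 in the pathway lists and none of the 10 genes. Depth limits FAS, TNFRSF10C and TNFRSF10D, which rest on 1 to 97 read ends a library.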

Other observations

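Genes of this pathway differed in how much of their exon length lies in another gene of the deposited table. DIABLO, which encodes a mitochondrial antagonist of inhibitor of apoptosis proteins, shares 96.2% of its exon bases and stood at 0.0168 to 0.112 TPM over the 6 libraries. RNF31, the catalytic subunit of the linear ubiquitin chain complex, also shares 96.2% and stood at 0.274 to 0.646 TPM. Its partners RBCK1 and SHARPIN share none and stood at 25.7 to 57.3 TPM and 16.7 to 67.7 TPM. No other gene of the pathway lists shares more than 44.7%, the value of TNFSF12, while FADD shares 57.1%. Whether reads in shared bases were left out of the counts was not tested, and the levels of DIABLO, RNF31 and FADD in these tables are uncertain for that reason.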
